A study of Homo sapiens with 16 samples.

Results

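The regions described here are deep intronic m6A peak regions of coding genes. Of the 36970 regions of the deposited merged peak list, 4930 (13.3%) lay fully inside the span of a canonical protein-coding transcript and overlapped no exon of any annotated transcript, on chromosomes 1 to 22 or X. They were chosen by position alone, and no measured value entered the choice. They lay in 3160 introns of 2422 host genes. For comparison, 19451 regions overlapped an exon of a canonical coding transcript (called exonic regions below) and 3881 lay outside every gene span (intergenic regions).

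N6-methyladenosine (m6A) is a methyl mark on adenosine that the METTL3-METTL14 writer complex places on RNA during transcription, mostly at the motif DRACH (D is A, G or T; R is A or G; H is A, C or T), of which GGAC is the core of the commonest form. In mature mRNA the mark is known for its place near stop codons and in long exons. Introns are removed soon after they are made, so a peak inside an intron is measured on unspliced or retained RNA, on unannotated exons, or on other transcripts made there.

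RNA came from 2 prostate cancer cell lines. C4-2B is an enzalutamide-sensitive line and MDV-R was derived from it by long exposure to enzalutamide, a drug given for prostate cancer, and is resistant to it. Per the study's methods MDV-R cells were maintained in medium with enzalutamide, while no drug is named for the culture of C4-2B. Both carry the genotype label WT, were harvested on day 3, and gave 4 replicates per line. Every replicate has a library enriched by the antibody (IP) and an input library, 16 in all. Titles of MDV-R samples name T24R2 as well, while their cell line field gives MDVR, which was followed. T24 is a urothelial line, so both kinds of marker were examined. Of the prostate luminal markers, KLK2, KLK3, HOXB13, FOLH1, TMPRSS2, STEAP2 and SLC45A3 each had an exonic region called in at least 3 lists of C4-2B and in 4 of MDV-R. Of 8 urothelial genes, 7 had no region at all, and UPK3A had 2, called in 2 lists of C4-2B and all 4 of MDV-R. MDV-R is 1 derived line, so line, drug history and drug in the medium cannot be told apart. Nothing in the labels says that replicates were separate cultures. P-values therefore measure the spread between these samples, which may be technical, and those of limma rest largely on a spread shared over regions.

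Each IP library has its own peak list. A region was counted as called where a peak overlapped it by at least 1 nt. Tags are the IP reads under a summit, recovered from the deposited fold enrichment and p-value, and are given as counts or as CPM, counts per 1e+06 recovered tags of the library. Recovered IP depth was 0.317 to 0.414 (in units of 1e+06 tags). Input depth in the same unit was 0.308 to 0.431 for C4-2B but 0.645 to 1.016 for MDV-R, so that input depth and line cannot be told apart. C4-2B replicate 1 stood apart, with 13191 peaks against 23254 to 30645 in the other 7 lists.

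Sequences at the summits are shown before the values. Windows of 101 nt centred on the strongest summit are given 5′ to 3′ on the strand of the host gene (hg38), with GGAC in capitals. They were taken in the order of the results below, from members without the repeat sequence that is described after them, with FBXO25 passed over. The first set belongs to members that were strong in all 8 lists, the second to members called in 1 line alone, and the third to members that differed most between the lines or lay farthest from an exon. Of these 12 windows 7 hold GGAC, a larger share than the 36.9% of called members given further on.

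CSNK1G2 intron 2, chr19:1975226-1975326, plus strand: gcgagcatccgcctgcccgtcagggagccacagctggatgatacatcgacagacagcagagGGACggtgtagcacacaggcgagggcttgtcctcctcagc
PIEZO1 intron 1, chr16:88770627-88770727, minus strand: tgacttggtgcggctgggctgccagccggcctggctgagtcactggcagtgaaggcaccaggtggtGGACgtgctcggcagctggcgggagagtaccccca
TCFL5 intron 5, chr20:62852842-62852942, minus strand: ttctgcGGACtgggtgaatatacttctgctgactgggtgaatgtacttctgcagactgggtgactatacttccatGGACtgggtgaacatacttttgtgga

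ALPK2 intron 4 (C4-2B), chr18:58551467-58551567, minus strand: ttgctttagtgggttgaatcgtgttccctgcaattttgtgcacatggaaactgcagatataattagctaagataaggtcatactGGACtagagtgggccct
SLC9A9 intron 6 (C4-2B), chr3:143595584-143595684, minus strand: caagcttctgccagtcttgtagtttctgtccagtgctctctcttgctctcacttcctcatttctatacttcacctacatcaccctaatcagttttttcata
SLC22A3 intron 9 (MDV-R), chr6:160445960-160446060, plus strand: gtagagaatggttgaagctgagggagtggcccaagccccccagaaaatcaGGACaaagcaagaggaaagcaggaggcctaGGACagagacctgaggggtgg
ZNF511-PRAP1 intron 4 (MDV-R), chr10:133314591-133314691, plus strand: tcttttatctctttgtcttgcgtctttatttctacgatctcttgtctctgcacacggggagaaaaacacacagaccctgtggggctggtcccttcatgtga

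PDE2A intron 2 (higher in MDV-R), chr11:72638508-72638608, minus strand: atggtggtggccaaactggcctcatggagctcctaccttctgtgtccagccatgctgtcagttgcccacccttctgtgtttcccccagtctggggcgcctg
PPIL6 intron 6 (higher in MDV-R), chr6:109415367-109415467, minus strand: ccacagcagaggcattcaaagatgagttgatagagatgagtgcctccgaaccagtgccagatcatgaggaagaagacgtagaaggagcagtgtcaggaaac
GLYATL1B intron 2 (lower in MDV-R), chr11:59092201-59092301, plus strand: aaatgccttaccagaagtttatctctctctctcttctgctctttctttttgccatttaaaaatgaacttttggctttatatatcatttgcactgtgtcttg
LMF1 intron 10 (lower in MDV-R), chr16:865859-865959, minus strand: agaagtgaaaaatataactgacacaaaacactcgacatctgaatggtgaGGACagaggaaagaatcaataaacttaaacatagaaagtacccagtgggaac
NCAM2 intron 1, chr21:21146850-21146950, plus strand: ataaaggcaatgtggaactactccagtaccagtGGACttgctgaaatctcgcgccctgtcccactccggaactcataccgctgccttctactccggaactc

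Many members not shown above shared 1 sequence. Words that recurred at the summits assembled into a consensus of 5306 nt, which from general knowledge is recognisable as the L1 retrotransposon, a repeat with very many copies in the genome. No repeat annotation was used, and this search was made after the data were examined. Words of 20 nt that recurred at the fullest places of the consensus are printed, with matches to DRACH in capitals.

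consensus 1409 to 1428, at the summits of 82 members: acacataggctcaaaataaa
consensus 4139 to 4158, at the summits of 85 members: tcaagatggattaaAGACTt
consensus 4869 to 4888, at the summits of 204 members: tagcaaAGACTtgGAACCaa

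These counts are for the host strand. The last word also stood at the summits of 76 members on the opposite strand, and it has 22641 exact copies in the genome on either strand, against 7116 and 14738 for the other two. Per the study's methods only uniquely mapped reads were kept, so copies too alike to be told apart could not give a peak, and a summit in a repeat is less certain than one in unique sequence.

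The consensus lay within 50 nt of the strongest summit in 1355 of the 4735 members with a summit (28.6%) in the direction of the host gene, and in 336 (7.10%) in the opposite direction. In 3722010 windows of 101 nt tiled over the introns of the host genes these shares were 1.69% and 2.71%. The ratio of host to opposite strand was 4.03 at the summits and 0.622 over the tiled introns. The peak lists carry no strand, so the direction is that of the annotated host gene. Since the consensus was built from the members themselves, these shares are a description with no test.

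A second shared sequence of 306 nt, of the Alu type, showed the reverse: it lay at 2.53% of member summits on either strand and in 8.58% of the tiled windows. Exonic regions held the L1-type consensus at 32 of 19000 summits (0.168%). Intergenic regions held it at 29.2%, and members at 35.7%, on either strand.

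Summits were not spread evenly along the consensus. Of its 54 stretches of 100 nt, the 6 fullest held 867 of the 1355 host-strand summits (64.0%), and the same 6 held 213 of the 336 opposite-strand summits (63.4%). The fullest, 4801 to 4900, held 293 host-strand and 94 opposite-strand summits. Stretches 4101 to 4200, 1401 to 1500 and 4201 to 4300 followed with 168, 131 and 127 host-strand summits. On the host strand 6 stretches held none. The whole consensus contains 17 GGAC motifs and is 40.6% adenine.

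**Figure D1:**
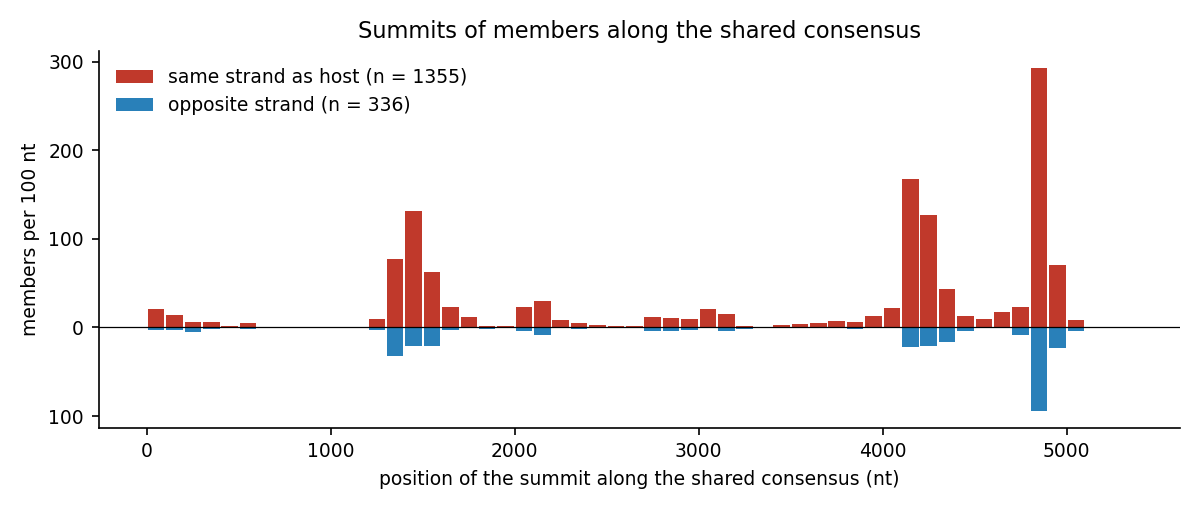
Number of members with a summit in each 100-nt stretch of the shared L1-type consensus (x axis, position in nt), upwards for the same strand as the host gene (1355 members) and downwards for the opposite strand (336). The tallest bars on both strands stand at 4801 to 4900 nt, with 293 and 94 members.

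Members with the consensus on the host strand came from 672 host genes and from the deeper parts of introns. Their median distance to an exon was 4993 nt and their median intron length 30568 nt, against 1674 and 16031 nt in the 3044 members without it. The share reached 42.5% among members over 10000 nt from an exon and was 6.08% among those under 500 nt. It was 19.7% in intron 1 and 31.4% in later introns. STXBP5L, which encodes a syntaxin-binding protein of vesicle release, held 24 such members of 38 with a summit. AGBL4, a carboxypeptidase that trims glutamate chains from tubulin, held 15 of 22, and VPS13B, a lipid transfer protein of the Golgi, 13 of 15.

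The host-strand share per list was 30.8, 30.2, 31.5 and 32.3% for C4-2B against 30.9, 31.1, 32.8 and 32.3% for MDV-R. The lines overlapped, with means of 31.2% ± 0.908 and 31.8% ± 0.942 (SD, n = 4, exact permutation p = 0.371, two-sided). On the opposite strand the shares were 10.8, 8.43, 8.56 and 9.53% in C4-2B and 5.34, 5.14, 7.44 and 5.34% in MDV-R. All 4 C4-2B values lay above all 4 MDV-R values, by 3.51 percentage points, with an exact permutation p = 0.0286, the smallest that 4 lists against 4 allow, and 0.0571 after Benjamini-Hochberg adjustment over 4 measures, so the difference did not pass.

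Within lists, host-strand consensus members had a median fold enrichment of 7.83 ± 0.294 against 7.44 ± 0.113 (SD, n = 8) in members without it, higher in 8 of 8 lists (exact sign-flip permutation, adjusted p = 0.0104). Their tags were fewer, at 37.6 against 42.3 CPM, and their local background was lower, at 1.95 against 2.75 times the library average, both in 8 of 8 lists with the same adjusted p. Their percentile of peak strength within the list was higher by 1.22, in 6 of 8 lists, and did not pass (adjusted p = 0.227, permutation). Local background is the level of input RNA that the peak caller set around the summit, in units of the library's average.

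Turning to position, members lay in long introns. The median intron of a member was 20426.5 nt long, with quartiles of 9173.75 and 53210.5 nt, against 2391.5 nt over all introns of the host transcripts and 1556 nt over all introns of canonical coding transcripts. Host genes were long too, with a median span of 90194 nt against 22741 nt for all coding genes. Longer introns offer more bases, so the placement was compared with intron bases.

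Intron 1 held 1158 members, 23.5% of them, against 21.9% of the intron bases of the host transcripts and 6.60% of their introns. Shares for introns 2 and 3 were 13.5% and 9.33%, against 14.4% and 10.0% of the bases. The last intron held 7.28% of members and 5.14% of bases. Introns past the tenth made up 44.96% of introns and 22.2% of bases, and held 21.6% of members. Shares of members lay closer to those of bases than to those of introns at each rank shown, except in the last intron. No test was made, since regions in 1 intron or gene are not independent.

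**Figure D2:**
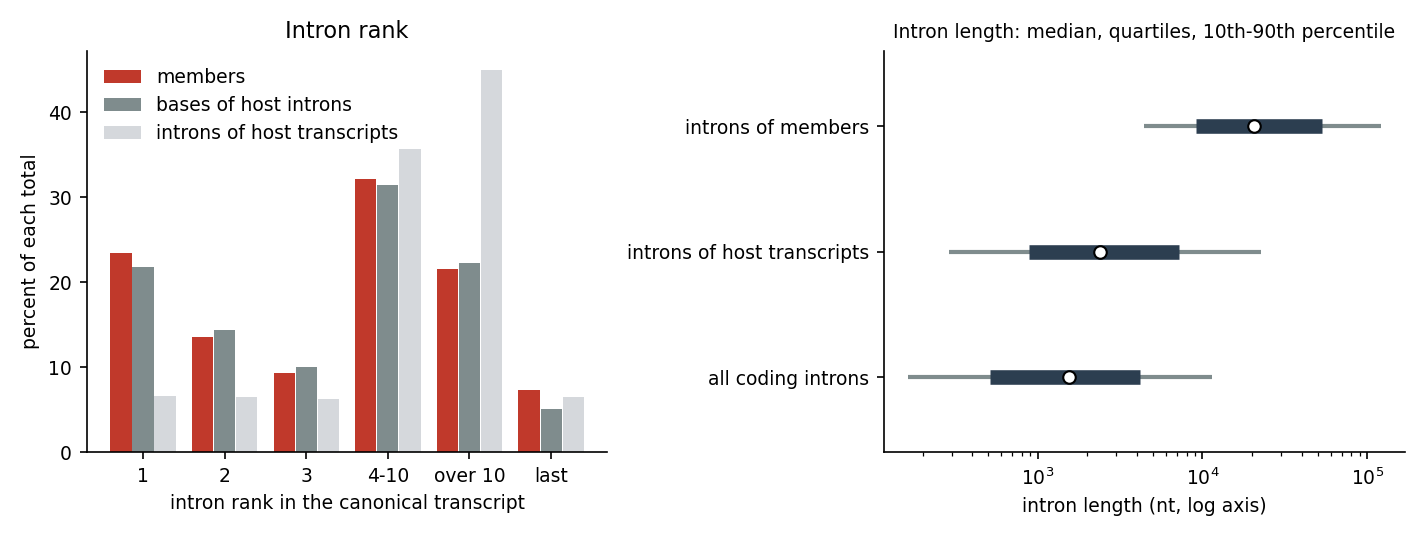
Left, percent of members, of host intron bases and of host introns (y axis) by intron rank (x axis), where the last intron is also counted under its rank. Right, intron length in nt on a log axis, with circles for medians, thick bars for quartiles and thin bars for the 10th to 90th percentile. Member shares follow the shares of bases, and the median member intron of 20426.5 nt lies above the 2391.5 nt of all host introns.

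Within introns, members were fewest near the 3′ splice site. From the 5′ to the 3′ end, 5 equal parts of the intron held 18.9, 22.9, 24.5, 20.99 and 12.7% of members. The median distance to the nearest exon of any transcript was 2797.5 nt, and the farthest lay 123189 nt away. At the border of the definition, 17 members lay under 10 nt from an exon, 3 of them (17.6%) called in all 8 lists, and 58 regions overlapped an exon by 1 to 10 nt, 6 of them (10.3%) called in all 8.

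Among the most remote members called in all 8 lists was one in intron 1 of NCAM2, a neural cell adhesion molecule, at chr21:21146519-21147237 and 76057 nt from an exon. It gave 49, 47, 49 and 49 tags in C4-2B against 27, 29, 28 and 27 in MDV-R. A member in intron 1 of NAALADL2 (chr3:174926745-174927871) lay 62654 nt from an exon and gave 64, 59, 90 and 82 tags in C4-2B against 17, 37, 34 and 33 in MDV-R. One in intron 3 of ERBB4, a receptor tyrosine kinase (chr2:211893856-211894386), lay 53043 nt from an exon and gave 14, 21, 11 and 16 tags in C4-2B against 15, 24, 28 and 21 in MDV-R. The lines did not overlap in the NCAM2 and NAALADL2 members and overlapped in the ERBB4 member. The consensus lay at the NAALADL2 summit on the host strand and at the ERBB4 summit on the opposite strand.

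Members were unevenly spread over host genes. Of the 2422 hosts, 1400 held 1 member, 838 held 2 to 4, 154 held 5 to 9 and 30 held at least 10. At most 15 members lay in 1 intron. STXBP5L held 38 in 8 of its 26 introns, and they were called 7, 27, 25 and 19 times in the C4-2B lists and 20, 30, 21 and 30 times in the MDV-R lists. PTPRN2, a phosphatase-like protein of secretory granules, held 26, of which 3, 8, 8 and 10 were called in C4-2B against 13, 18, 13 and 17 in MDV-R. AGBL4 held 22, of which 0, 3, 3 and 6 were called in C4-2B against 7, 10, 18 and 14 in MDV-R. In PTPRN2 and AGBL4 every MDV-R list called more members than any C4-2B list, while the lines overlapped in STXBP5L. Of the 30 hosts with at least 10 members, 9 had every MDV-R list higher and 1 every C4-2B list. PPFIA2, a liprin of synapses, held 18, and SPIDR, a scaffold of DNA repair, held 17, both with overlapping lines. Most MDV-R lists are longer, and with lists of equal size only PTPRN2 of these 5 was called more often in every MDV-R list (3, 1, 2 and 3 members against 5, 6, 5 and 6). STXBP5L then overlapped, and AGBL4 (0, 0, 0 and 0 against 0, 0, 1 and 0) had too few calls left to compare. PPFIA2 (6, 7, 7 and 8 against 3, 3, 2 and 2) and SPIDR (4, 3, 3 and 4 against 0, 1, 0 and 0) were called more often in every C4-2B list. Of the 30 hosts, 3 then had every MDV-R list higher and 4 every C4-2B list. These hosts were chosen for their number of members, so no test was made.

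An exonic region was called in all 8 lists in 1041 of the host genes (43.0%) and in any list in 1720 (71.0%). The other 702 hosts held 1493 members and no called exonic region.

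Most members were called in few lists. Of the 4930, 179 were called in none, 1419 (28.8%) in 1 list and 438 (8.88%) in all 8. Of exonic regions 35.3% were called in all 8, and of intergenic regions 9.69%. On average a list called 41.3% of members, 63.6% of exonic and 41.1% of intergenic regions. Members were called less often than exonic regions in 8 of 8 lists, by 22.3 percentage points ± 6.03 (SD, exact sign-flip permutation, adjusted p = 0.0137 over 14 comparisons, two-sided). The difference from intergenic regions, 0.186 points ± 2.94, did not pass (adjusted p = 0.875, permutation). With lists of equal size it turned to −1.099 points and passed (adjusted p = 0.0273, permutation).

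**Figure D3:**
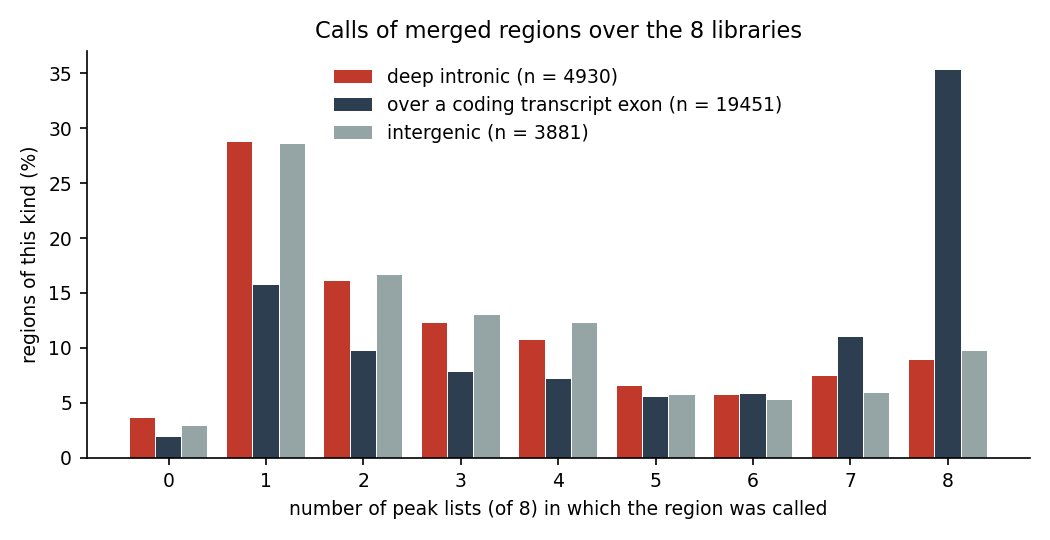
Percent of regions (y axis) called in 0 to 8 of the peak lists (x axis) for 4930 deep intronic, 19451 exonic and 3881 intergenic regions. Deep intronic and intergenic regions peak at 1 list, with 28.8% and 28.6%, while 35.3% of exonic regions were called in all 8.

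The lists called 756, 2101, 2053 and 2110 members in C4-2B and 1775, 2449, 2391 and 2656 in MDV-R. C4-2B replicate 1 was low and the lines overlapped. The means of 1755 ± 666 and 2318 ± 379 (SD, n = 4) did not pass the exact permutation test of their difference (adjusted p = 0.257 over 9 measures). Members made up 9.45% ± 1.80 of called regions in C4-2B and 10.1% ± 1.04 in MDV-R, and this difference did not pass either (adjusted p = 0.707, exact permutation). When all lists were limited to an equal length, both differences turned and passed, at −179 members per list and −1.67 points in the share, MDV-R minus C4-2B (adjusted p = 0.0429 each, exact permutation).

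Called in all 4 lists of C4-2B and in none of MDV-R were 81 of the 4751 members called anywhere (1.70%), against a background of 1.22% of all called regions. The reverse held for 172 members (3.62%), against a background of 3.68%. With lists of equal size the order of the lines turned, with 107 members in C4-2B alone (7.10%, against a background of 2.96%) and 30 in MDV-R alone (1.99%, against 2.7%). After adjustment no member passed Fisher's exact test over lists (lowest adjusted p = 0.584), while 253 members had an unadjusted p under 0.05, since 4 against 4 lists cannot give a p below 0.0286. Without C4-2B replicate 1 the count for C4-2B was 223 (4.70%, against a background of 2.99%), and without MDV-R replicate 1 that for MDV-R was 282 (6.05%, against 5.07%).

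The strongest member called in C4-2B alone lay in intron 4 of PPFIA2 (chr12:81665605-81666780), with 166, 159, 161 and 156 tags in the 4 C4-2B libraries. Its summit held the consensus on the opposite strand. A member in intron 1 of PDE4D, a phosphodiesterase of cyclic AMP (chr5:59306978-59308189), gave 38, 41, 30 and 38 tags, also at the opposite-strand consensus. Next came members of GRAMD2B with 44, 37, 40 and 42 tags, ALPK2, an alpha kinase, with 43, 51, 46 and 39, and SLC9A9, a sodium/proton exchanger of endosomes, with 32, 32, 26 and 26. Of the 81, 15 (18.5%) held the consensus on the opposite strand and 18 (22.2%) on the host strand. PPFIA2 held 5 of the 81.

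In MDV-R alone the strongest member was in intron 9 of SLC22A3, an organic cation transporter (chr6:160444573-160446533), with 103, 123, 122 and 115 tags. The local background there was high, at 69.6 times the library average, and the fold enrichment was 5.68. Members of ZNF511-PRAP1, a read-through locus, gave 31, 46, 49 and 42 tags, and of ADAM12, a membrane metalloprotease, 21, 28, 39 and 34. HRH1, the histamine receptor H1, gave 29, 35, 37 and 27, and TNN, a tenascin of the matrix, 54, 59, 61 and 49. None of these 5 held the consensus. Of the 172, 48 (27.9%) held it on the host strand and 10 (5.81%) on the opposite strand. No peak was called there in the other line, so no fold can be given. In bulk RNA, fewer cells with a transcript and less of it per cell cannot be told apart.

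Peak strength was higher in members called in more lists. Members called in 1 list, in 2 to 4, in 5 to 7 and in 8 had median CPM of 24.4, 31.0, 40.3 and 72.0, and a median of 8, 11, 14 and 25 tags. Their median fold enrichment was 6.07, 6.70, 7.97 and 11.7. A call itself depends on tags, so these measures are not independent and no test was made.

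Per list, members had weaker peaks than exonic regions. Median CPM at member summits was 51.0, 39.5, 42.8 and 44.1 for C4-2B against 37.2, 37.2, 33.8 and 32.0 for MDV-R. Averaged over the 8 lists, members had 39.7 ± 6.13 CPM and exonic regions 125 ± 17.5 (SD, exact sign-flip permutation, adjusted p = 0.0137, lower in 8 of 8). Local background was 2.50 ± 0.563 against 11.5 ± 3.42 times the library average, and peak width 415 ± 19.4 against 586 ± 25.4 nt, with the same adjusted p and direction.

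In fold enrichment members and exonic regions were closer. Members averaged 7.60 ± 0.139 and exonic regions 8.72 ± 1.12, lower in 7 of 8 lists (exact sign-flip permutation, adjusted p = 0.0298). That call was lost when any 1 of 6 libraries was left out (C4-2B replicates 2 to 4 and MDV-R replicates 1, 2 and 4, each with adjusted p = 0.0597, permutation) and at a stricter peak threshold (adjusted p = 0.109, permutation). With lists of equal size members were higher by 0.982, which passed (adjusted p = 0.0199, permutation).

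Intergenic regions resembled members more closely. Members had a higher local background, by 0.580 ± 0.480, in 8 of 8 lists (exact sign-flip permutation, adjusted p = 0.0137). Their fold enrichment was lower by 0.253 ± 0.181 and their percentile of peak strength within the list lower by 1.41 ± 1.70, in 7 lists each (adjusted p = 0.0219, permutation). The second call was lost at a stricter peak threshold (−0.811, adjusted p = 0.164, permutation), with an overlap of at least 50% (−1.35, adjusted p = 0.0795) and with exons of coding genes alone barred (−0.377, adjusted p = 0.5). Differences in CPM, 2.36 ± 2.77, and in width, 2.13 nt ± 7.76, did not pass, though that in CPM did with exons of coding genes alone barred (3.98, adjusted p = 0.0398, permutation).

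**Figure D4:**
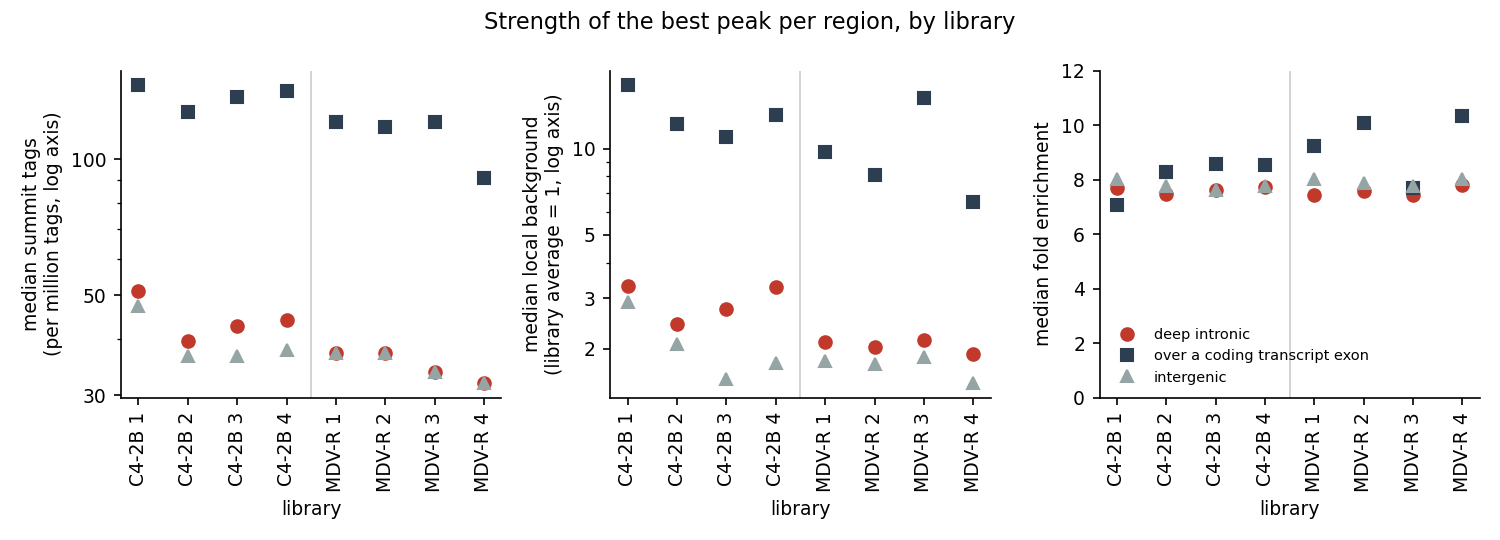
Median IP tags at the summit in CPM (log axis), median local background in units of the library average (log axis) and median fold enrichment in the 8 libraries (x axis), 1 point per kind of region. Deep intronic points lie under the exonic ones in tags and background in every library, and in fold enrichment in 7 of 8.

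Between the lines, median member CPM came to 44.3 ± 4.83 for C4-2B against 35.04 ± 2.59 for MDV-R (SD, n = 4). The lines did not overlap, and the exact permutation p was 0.0286, with 0.129 after adjustment over 9 measures. The share of called members in intron 1 reached 26.5, 23.99, 24.2 and 25.02% for C4-2B against 21.97, 21.9, 21.3 and 22.2% for MDV-R, again without overlap and with the same exact and adjusted p. Neither passed. With lists of equal size the difference in CPM turned to 3.05 higher in MDV-R, and that in intron 1 passed, at 4.63 points lower (adjusted p = 0.0429, permutation).

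GGAC was more frequent at member summits than beside them. It lay within 50 nt of the summit, on the host strand, in 36.9% ± 0.830 of called members per list, against 24.6% ± 2.23 on the opposite strand and 22.9% ± 0.726 in windows 300 nt away (SD, n = 8). Both differences held in 8 of 8 lists (exact sign-flip permutation, adjusted p = 0.0137). Between the lines, at 36.8% ± 1.21 and 37.0% ± 0.329, the difference did not pass (adjusted p = 0.914, exact permutation). With lists of equal size it came to 4.12 points more in MDV-R and passed (adjusted p = 0.0429, exact permutation). The share over members rose with the number of lists, from 31.6% in 1 list to 34.2%, 38.1% and 41.0% in 2 to 4, 5 to 7 and 8, while the opposite strand stayed between 23.4% and 25.1%.

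Members without the consensus held GGAC more often, in 39.8% ± 1.32, against 25.6% ± 2.04 on the opposite strand and 25.8% ± 0.656 in the flanks (exact sign-flip permutation, adjusted p = 0.0104 each, 8 of 8 lists). These members were chosen by the sequence of the summit window, while their flanks were not screened for the consensus. Their contrasts with the flanks may depend in part on that choice. Members with it on the host strand held GGAC in 32.5% ± 3.03. Over all members, the word of 5 nt with the largest excess at the summit over the flanks was AGACT, in 25.1% against 9.21%. Among members without the consensus AGACT stood in 16.1% against 8.75%, followed by GGACT in 14.2% against 7.56%. Both words match DRACH.

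For 432 members with a summit in all 8 lists, the values of the lines were compared in a limma fit on all 9156 such regions, with Benjamini-Hochberg adjustment over all of them. Members entered this set only through being called everywhere. The variance of each region was moderated towards a trend over all of them, so SE and p rest largely on that shared spread. The PIEZO1 member had SD of 36.0 and 31.6 CPM (C4-2B and MDV-R) and the TCFL5 member 12.1 and 15.6, yet both had an SE of 0.154. Tags (CPM) were higher in MDV-R in 38 members (8.80%), against a background of 14.3% of all regions, and lower in 154 (35.6%), against 19.9%. The median log2 difference was −0.24 for members and −0.04 for all regions. Values of the lines did not overlap in 156 members (36.1%) and in 27.9% of all regions.

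Local background was lower in MDV-R in 56 members (12.96%), against a background of 13.3% of regions, and higher in 2 (0.463%), against 1.77%. Of the 154 members with fewer tags, 148 (96.1%) had a log2 background difference below 0 and 49 (31.8%) passed the test for it. A difference below 0 was common whatever the tags, in 80.6% of the 432 members and 75.7% of all regions, and of all regions with fewer tags 96.8% had one and 43.7% passed. Of the 38 members with more tags, 24 (63.2%) had one above 0, against 77.1% of all regions with more tags. Fold enrichment was higher in 9 members (2.08%), against a background of 2.87%, and lower in 4 (0.926%), against 0.218%. The part of RNA level in the difference in tags was not tested.

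The counts for fold enrichment and background depended on single libraries. Without MDV-R replicate 3, fold enrichment was higher in 33 members (7.64%), against a background of 22.3% of all regions, and lower in 13 (3.01%), against 0.765%. Background was then lower in 104 members (24.1%), against 33.8%. Leaving out 1 of the other 7 gave 0 to 7 higher and 1 to 7 lower in fold enrichment, against 0.197 to 1.57% and 0.0328 to 0.295% of all regions, and 30 to 55 lower in background, against 5.9 to 9.92%. Counts for tags stayed between 32 and 44 higher and between 125 and 188 lower, against 11.3 to 15.3% and 14.8 to 29.8% of all regions.

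Scaling moved the splits too. With every library centred on its median, members with higher and lower fold enrichment numbered 2 and 26, against 0.885% and 1.73% of all regions, and with higher and lower background 13 and 34, against 6.62% and 9.52%. In tags, quantile normalization gave 68 higher (15.7%) and 160 lower (37.0%), against 28.4% and 27.4% of all regions. Pileup over the library average, an alternative added later, gave 56 higher (12.96%) and 125 lower (28.9%), against 20.8% and 14.8%, so that more regions were then higher than lower over the whole set, but not among members.

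By consensus, 57 of 137 members with it on the host strand (41.6%) had fewer tags in MDV-R and 5 (3.65%) had more, against the background of 19.9% and 14.3% of all regions. Of 265 without it, 84 (31.7%) had fewer and 31 (11.7%) more. Of 30 with it on the opposite strand, 13 (43.3%) had fewer and 2 (6.67%) more. The difference between these groups was not tested.

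The strongest members, ranked over the 8 lists, lay in 8 host genes. The first, in intron 9 of STXBP5L (chr3:121162131-121163478), gave 128, 136, 138 and 147 tags in C4-2B against 83, 102, 103 and 104 in MDV-R. The counts of the lines did not overlap, but their CPM did. CPM were 394.9 ± 64.6 and 274.8 ± 30.2 (SD, n = 4), a log2 difference of −0.51 ± 0.15 (SE, limma adjusted p = 0.00209), and the local background fell by 1.71 on the log2 scale (adjusted p = 0.00563). Its summit lay on the host-strand consensus.

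The member in intron 1 of SCAP, the sterol-sensing escort of SREBP (chr3:47467896-47469171), gave 87, 86, 84 and 88 tags in C4-2B against 65, 75, 78 and 68 in MDV-R. Here too the counts did not overlap and the CPM did, and the log2 difference of −0.30 ± 0.15 did not pass (limma adjusted p = 0.114). It passed after quantile normalization (adjusted p = 0.00268), after centring (0.00366), and without C4-2B replicate 1 (0.0117) or MDV-R replicate 2 (0.0495). The SCAP summit lay on the host-strand consensus.

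In intron 7 of FBXO25, an F-box protein, tags were 96, 109, 102 and 99 against 63, 70, 74 and 76, with a log2 difference of −0.55 (limma adjusted p = 0.00135) and without the consensus. In intron 2 of CSNK1G2, a casein kinase, they were 75, 91, 88 and 72 against 50, 56, 70 and 57, with a difference of −0.51 (adjusted p = 0.00411). The windows printed for CSNK1G2, PIEZO1 and TCFL5 each hold GGAC. PIEZO1, a mechanically gated channel, showed 63, 64, 63 and 76 tags against 78, 64, 76 and 63 at a member of 4082 nt, with a difference of 0.05 (adjusted p = 0.827).

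TCFL5, a basic helix-loop-helix factor, showed 80, 77, 70 and 62 tags against 61, 64, 67 and 69, with a log2 difference of −0.17 (limma adjusted p = 0.436). ZFPM2, a cofactor of GATA factors, showed 84, 95, 83 and 88 against 73, 70, 92 and 74, with −0.21 (adjusted p = 0.287, and 0.0398 without C4-2B replicate 1). C11orf80 showed 54, 51, 50 and 53 against 53, 60, 63 and 49, with 0.08 (adjusted p = 0.734). These 3 did not pass with all 8 libraries. The consensus lay at the C11orf80 summit on the host strand and at the ZFPM2 summit on the opposite strand.

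Members with the largest differences were picked among those that passed and whose lines did not overlap. Of those with more tags in MDV-R, the first lay in intron 2 of PDE2A, a cyclic nucleotide phosphodiesterase (chr11:72637819-72639862). It gave 16, 19, 18 and 17 tags in C4-2B against 88, 94, 86 and 77 in MDV-R. CPM rose from 50.3 ± 7.63 to 244.3 ± 44.3, a log2 difference of 2.28 ± 0.18 (limma adjusted p = 1.69e-35). Background rose by 2.26 (adjusted p = 0.00205) and fold enrichment by 1.21 (adjusted p = 0.0347). In C4-2B that background was 1, 2.44, 1.00 and 1.79 times the library average, at or near the lowest value it can take. No GGAC stands in the printed window.

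PFKFB1, a bifunctional enzyme of glycolytic control, rose by 1.25 (7, 7, 5 and 7 tags against 15, 13, 19 and 16, limma adjusted p = 2.73e-05). HSPA14, a ribosome-bound Hsp70 protein, rose by 1.20 (14, 11, 13 and 16 against 25, 30, 40 and 32, adjusted p = 2.82e-07). PPIL6, of the cyclophilin family, rose by 1.12 (37, 42, 35 and 38 against 74, 83, 95 and 85, adjusted p = 6.24e-11). PEX13, of peroxisomal import, also rose by 1.12 (13, 18, 13 and 15 against 38, 31, 33 and 28, adjusted p = 1.23e-06). In none of these 4 did background or fold enrichment pass. Summits of PFKFB1 and PEX13 lay on the host-strand consensus, and that of HSPA14 held it on the opposite strand.

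The largest difference among the members picked this way lay in intron 6 of SLC10A7, of the bile acid transporter family (chr4:146322224-146323957). It gave 145, 165, 158 and 141 tags in C4-2B against 14, 13, 13 and 16 in MDV-R. CPM fell from 436.2 ± 58.2 to 39.4 ± 5.51, a log2 difference of −3.47 ± 0.17 (limma adjusted p = 3.99e-90). Background fell by 4.54 on the log2 scale (adjusted p = 5.41e-08), while fold enrichment differed by −0.09 (adjusted p = 0.881). In MDV-R that background was 1.21, 2.02, 1.86 and 2.47 times the library average, near its floor. Its summit lay on the host-strand consensus.

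In intron 11 of KIF7, a kinesin of hedgehog signalling (chr15:89638568-89640152), tags were 74, 88, 88 and 84 against 8, 8, 11 and 10. Its summit held the consensus on the opposite strand. The log2 difference was −3.21 ± 0.20 (limma adjusted p = 2.68e-57), and here fold enrichment fell too, by 2.01 (adjusted p = 2.29e-05). GLYATL1B, a glycine acyltransferase-like gene, gave 64, 66, 60 and 57 against 7, 6, 8 and 11, with −3.01 (adjusted p = 4.96e-44, near-identical family members may share reads) and a fall of 1.52 in fold enrichment (adjusted p = 0.00739). Background fell in both as well, by 2.29 and 2.47 (adjusted p = 0.000463 and 0.00114). In MDV-R it stood at the library average, the lowest value it can take, in all 4 libraries for KIF7, and at 1.00 to 1.88 times that average for GLYATL1B, so that the fold enrichment of MDV-R is taken over a background at or near its floor.

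LMF1, a factor of lipase maturation, gave 59, 66, 59 and 62 tags against 14, 8, 8 and 20, with a log2 difference of −2.43 (limma adjusted p = 1.34e-32). RASEF, a small GTPase of the Rab family, gave 74, 74, 73 and 78 against 14, 17, 17 and 17, with −2.23 (adjusted p = 4.49e-32). Their fold enrichment did not pass, at −0.97 and −0.82, and their background fell by 2.36 and 2.14 (adjusted p = 0.00264 and 0.0031). In MDV-R that background was 1, 2.36, 1 and 3.71 times the library average for LMF1, where 1 is the floor. For RASEF it was 1.99, 2.13, 3.03 and 1.51. The RASEF summit lay on the host-strand consensus.

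**Figure D5:**
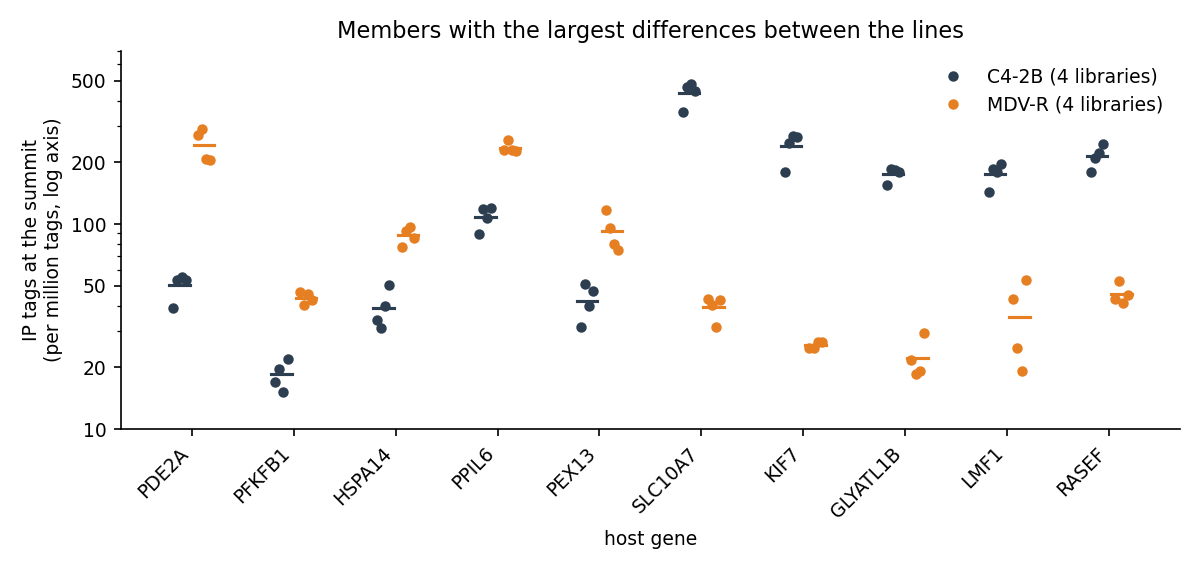
IP tags at the summit in CPM (log axis) of the 5 members with the largest rises and the 5 with the largest falls. They were picked among those that passed and whose lines did not overlap. Each point is 1 library, with bars for the mean of 4 libraries. Means ran from 436.2 in C4-2B against 39.4 in MDV-R for SLC10A7 to 50.3 against 244.3 for PDE2A.

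Gene lists were examined for hosts. Of 19625 canonical coding transcripts 2422 were hosts, and 8.88% of all members were called in all 8 lists. The latter share was 33.3% for the m6A machinery, 21.1% for chromatin regulators and 11.5% for fragile sites. It was 16.7% for adhesion and guidance genes and 0% for splicing and 3′ processing factors, each over few members and without a test. Among genes of the prostate list, FOLH1, which encodes prostate-specific membrane antigen, held 2 members, and the one in intron 13 (chr11:49160804-49161679) was called in all 8 lists. A near-identical copy, FOLH1B, makes the placing of its reads uncertain. The member in intron 13 gave 52, 54, 55 and 50 tags in C4-2B against 58, 78, 79 and 69 in MDV-R, with a log2 difference of 0.40 ± 0.16 (limma adjusted p = 0.0373). The call was lost without C4-2B replicate 2 or 4 or MDV-R replicate 1, 2 or 3, with adjusted p of 0.0519 to 0.157. Its summit lay on the host-strand consensus.

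Of 19 genes of the m6A machinery, 4 held 6 members, namely the demethylase FTO with 3, the writer subunit ZC3H13 with 1, and the readers YTHDC2 and IGF2BP3 with 1 each. The latter 2 members were called in all 8 lists. YTHDC2 gave 20, 28, 21 and 32 tags in C4-2B against 20, 33, 36 and 35 in MDV-R, and IGF2BP3 17, 18, 28 and 25 against 17, 22, 28 and 23. The lines overlapped in both and neither passed (limma adjusted p = 0.313 and 0.958). The IGF2BP3 summit lay on the host-strand consensus.

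Of 40 chromatin regulators, 11 held 19 members, 4 called in all 8 lists, of which 1 rose and 2 fell, where 14.3% of all regions were higher and 19.9% lower. The remodellers CHD9 in intron 17 (29, 31, 35 and 31 against 14, 14, 18 and 17 tags) and CHD7 (20, 20, 25 and 19 against 11, 10, 10 and 8) fell by 1.03 and 1.13 on the log2 scale (limma adjusted p = 8.65e-06 and 2.28e-05). The member that rose lay in intron 2 of the same CHD9 gene (0.63, adjusted p = 0.0186), and was named after its value was seen. HDAC4, a histone deacetylase, gave 15, 21, 21 and 15 against 16, 20, 30 and 25, which did not pass (adjusted p = 0.303, and 0.0432 after quantile normalization). The CHD7 summit lay on the host-strand consensus.

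Genes at common fragile sites, which are very long genes prone to breakage, held most members of any list. Of 20, 14 held 61, and 7 were called in all 8 lists. Of these 7, 5 fell and none rose, where 35.6% of the members tested and 19.9% of all regions were lower. The median log2 difference was −0.96, against −0.24 for all members tested. The 5 were the member of LPP and all 4 of NAALADL2, which ranged from −1.35 to −0.65, each with a background also lower past the threshold, so that 4 of the 5 share 1 gene. Its member in intron 2 (chr3:175116499-175118104) gave 49, 61, 71 and 67 tags against 27, 23, 36 and 40, a fall of 1.02 (limma adjusted p = 4.34e-08). LPP fell by 0.96 (30, 35, 26 and 33 against 9, 20, 17 and 22, adjusted p = 3.81e-05), and IMMP2L, a mitochondrial peptidase, gave 31, 29, 34 and 33 against 27, 28, 29 and 30 and did not pass (adjusted p = 0.507). Summits of LPP, IMMP2L and the NAALADL2 members at chr3:174926745 and chr3:175116499 lay on the host-strand consensus, where 41.6% of members had fewer tags.

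Of 30 cell adhesion and neuronal guidance genes, 8 held 24 members, 4 called in all 8 lists, of which 1 fell, against the same 19.9% of regions, the NCAM2 member described above (log2 difference −0.83, limma adjusted p = 3.57e-05). The ERBB4 member did not pass (0.49, adjusted p = 0.0779), though it did with quantile normalization (adjusted p = 0.00697), centring (0.0292) and pileup over the library average (0.0348). NLGN1, a synaptic adhesion protein, gave 34, 50, 53 and 40 tags against 45, 44, 40 and 47 (adjusted p = 0.969). Of 35 splicing and 3′ processing factors, 5 held 7 members, none called in all 8 lists.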

How the data were processed

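Per the labels and the study's methods, total RNA was fragmented to about 100 nt, enriched with an anti-m6A antibody and sequenced with a stranded kit. Alignment by the authors used STAR (version 2.7.0) on hg38 with GENCODE v39. SAMtools (version 1.10) then kept unique alignments and dropped duplicates, and MACS2 (version 3.0.0a6) called IP peaks over input, per replicate. The deposited lists hold a ratio (fold enrichment), −log10 p-values, −log10 q-values and a score per peak, and a merged list of regions. How it was merged is not given in the sources used here.

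Members and lists were chosen with earlier results of these data known. Regions were placed with GENCODE v44. IP tags and local background were recovered from fold enrichment and −log10 p, with a genome size of 3e+08 nt as the methods state, and whole tags solved at least 99.99% of peaks. The shortest peaks (239 to 293 nt) were taken as fragment length, since the stated extension of 100 nt did not match them. Absolute depth is therefore a reconstruction, and probably too low. Libraries were compared by exact two-sided permutation (70 arrangements, smallest p 0.0286), and kinds of region within lists by sign flips (256 arrangements, smallest p 0.0078). Regions were compared by limma 3.58.1 on log2 values with a threshold of 0.05. On simulated data this fit recovered 93% of 200 regions changed by 1 log2 unit, with 8 false calls among the unchanged regions. The 200 were drawn from all 9156 regions, with independent normal noise and no difference in scale between libraries. The share recovered among members alone was not examined. The consensus was assembled from words of 24 nt shared by at least 30 members and matched with words of 16 nt. Named members were the 8 strongest, the 5 hosts with most members, the 5 strongest per line, the 5 largest rises and falls, the 3 farthest from an exon and up to 3 per gene list. Rises and falls were picked among members that passed and whose lines did not overlap. Alternatives changed peak threshold, list size, overlap, member definition, motif, window, scaling, filter, pairing and libraries. Read counts per region were not used here. One gene of the marker and prostate lists is not reported here, and counts over those lists that include it were left out.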

Additional observations from a re-analysis of the deposited data

Results flagged for a closer look

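In groups of 4 libraries, 7 of 98 groups examined held a library far from the other 3, where about 1 in 20 are marked by chance. C4-2B replicate 1 called 756 members, against 2053 to 2110 in the other 3. C4-2B replicate 4 had a median member intron of 20867 nt, against 19731.5 to 19803 nt. In MDV-R replicate 3 the consensus stood on the opposite strand at 7.44% of called members, against 5.14 to 5.34%. Among named members, CPM was low in C4-2B replicate 1 for FBXO25 (233, against 307.8 to 311.8) and PDE2A (38.9, against 53.5 to 55.0). It was high in MDV-R replicate 2 for PPIL6 (257, against 226.6 to 229.4) and in MDV-R replicate 4 for CHD9 (45.3, against 43.3 to 43.5).

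Of 14 within-list differences, 5 were unequal between the lines, each with an exact permutation p = 0.0286 and an adjusted p = 0.08, so that none passed the adjustment. Members differed from exonic regions by −93.6 CPM in C4-2B but by −77.5 CPM in MDV-R, a difference of 16.2 CPM. Against intergenic regions, the percentile of peak strength differed by −0.211 in C4-2B but by −2.62 in MDV-R (−2.41), and CPM was higher by 4.72 in C4-2B and equal in MDV-R (−4.72). The excess of GGAC at summits over the opposite strand was 10.5 points in C4-2B and 14.1 points in MDV-R (3.55). The percent of regions called, members less intergenic, was −1.70 points in C4-2B and 2.07 points in MDV-R (3.77).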

How the results depend on the processing

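Over 64 results and 863 values under alternatives, 758 kept their direction and side of the threshold (or stayed near the value reported). The planned test on soft-masked repeats was not run, since the genome used here carries no masking. Input depth differs between the lines without overlap, and values exist at called peaks alone, so an uncalled member may lie just under the threshold. Most members carry few tags, which limits what a comparison between the lines can detect.

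With all lists limited to an equal length by −log10 p, the differences between lines (MDV-R minus C4-2B) became −179 members called, −1.67 points in their share of calls, 10.2 in percentile, 2.58 in fold enrichment, 3.05 CPM, −4.63 points in intron 1, −301.25 nt in distance to an exon, −3505.5 nt in intron length and 4.12 points in GGAC, and 30 members were called in MDV-R alone. Of these tests, those of percentile, fold enrichment and CPM did not pass, and the other 6 did (adjusted p = 0.0429 each, exact permutation). The percentile was still ranked within the full list, so cutting a longer list raises it by itself. Members then differed from exonic regions by 0.982 in fold enrichment (adjusted p = 0.0199) and from intergenic regions by −1.099 points in percent called (adjusted p = 0.0273), −2.94 nt in width and −0.626 CPM, the last 2 without passing. With a −log10 q of at least 5, members differed from exonic regions by −0.923 in fold enrichment and from intergenic regions by −0.248 points called and −0.811 in percentile, none of which passed. At least 500 nt from any exon, the difference in distance was −24.1 nt. With exons of coding genes alone barred, the differences from intergenic regions were −0.377 in percentile, a call lost, and 3.98 CPM, a call gained. With an overlap of at least 50%, the percentile differed by −1.35, a call lost. The cause was not tested.

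In the limma fits, requiring 20 tags in every library left 166 members. Of these, 17 (10.2%) were higher and 47 (28.3%) lower in tags, against 12.4% and 16% of all regions. In fold enrichment the counts were 1 (0.602%) and 0, against 0.862% and 0%. In background they were 1 (0.602%) and 29 (17.5%), against 1.46% and 16.4%. Centring gave 58 (13.4%) higher in tags, against 26% of all regions. It gave 2 (0.463%) and 26 (6.02%) in fold enrichment, against 0.885% and 1.73%, and 13 (3.01%) and 34 (7.87%) in background, against 6.62% and 9.52%. Quantile normalization gave 68 (15.7%) higher in tags, against 28.4% of all regions. It gave 2 (0.463%) and 29 (6.71%) in fold enrichment, against 0.775% and 1.8%, and 6 (1.39%) higher in background, against 6.61%. All regions had a median fold enrichment difference of 0.44 on the log2 scale, which both scalings removed. The NLGN1 member turned to 0.02 under both scalings (0.0233 and 0.0226) and to 0.0940 as pileup over the library average. The consensus lay at 32.2% of summits within 150 nt, and at 26.1% with words of 20 nt, both added after seeing the data.

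Same-numbered replicates correlated at −0.080 to 0.041 and other pairs across the lines at −0.079 to 0.032, after centring within each line. Of the 8 libraries, 4 correlated best with their own number. Whether the numbers pair the samples was not tested. With the replicate block, 44 of 46 values kept their call. Background was higher in 5 members (1.16%), against 2.02% of all regions, and FOLH1 lost its call (limma adjusted p = 0.070). The block leaves 16 arrangements and a smallest p of 0.125.

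Leaving out 1 library at a time gave, for MDV-R minus C4-2B, 229.75 to 743.667 members called, −0.265 to 1.103 points in their share, −3.17 to −1.44 in percentile, −0.147 to −0.0256 in fold enrichment, −10.9 to −7.09 CPM, −3.37 to −2.55 points in intron 1, −1.42 to 182.9 nt in distance, −2070 to −1307 nt in length and −0.352 to 0.565 points in GGAC. One line alone called 84 to 223 members in C4-2B and 175 to 282 in MDV-R, against 1.3 to 2.99% and 3.71 to 5.82% of all called regions. Against exonic regions fold enrichment differed by −1.37 to −0.916, and against intergenic regions the percent called by −0.641 to 0.555. The limma counts, higher and lower, were 32 to 44 and 125 to 188 in tags, 0 to 33 and 1 to 13 in fold enrichment, and 1 to 3 and 30 to 104 in background. PIEZO1 ranged from −0.0478 (−0.0466 without MDV-R replicate 1) to 0.168, IGF2BP3 from −0.17 to 0.18 and NLGN1 from −0.21 to 0.12.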
